A study of Mus musculus with 6 samples.

Results

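The genes described here are 45 replication and mitosis genes of the mouse, given as a list of symbols that runs from the cyclins and kinases of G1 to the kinesins and checkpoint proteins of mitosis. Each symbol was matched to 1 row of the deposited count table through its Ensembl identifier, and a row was found for 45 of 45, out of 21965 genes in the table. Read counts came from polyA-selected RNA of lung interstitial macrophages, which were sorted with fluorescent antibodies from digested lungs of C57Bl/6 mice that were 6 to 8 weeks old. One group had received WGP, a particulate β-glucan and inducer of trained immunity, at 1 mg into the peritoneum, and the other phosphate-buffered saline (PBS) by the same route. Treatment is given as 6 days, with lungs taken on day 7, and each group had 3 libraries numbered 1 to 3. The titles of both groups carry the word Control, and no tumour or further agent is named for either. Whether 1 mouse or several went into a library is not stated, so the p-values measure the spread between these libraries, which may in part be technical.

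Cells that divide pass through G1, S, G2 and M. D-type cyclins with their kinases CDK4 and CDK6 release E2F factors from the retinoblastoma protein in G1, E2F then drives the genes that license origins and supply nucleotides, and CDK1 with cyclins A and B carries the cell into mitosis. Most tissue macrophages rest outside this cycle, and a small cycling fraction maintains some resident populations, while circulating monocytes enter tissue as non-dividing cells. In bulk RNA, fewer cycling cells and less of a transcript per cell cannot be told apart.

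Libraries held 18254678 to 20346517 counts. Levels are TMM-normalised CPM (counts scaled to library size), given in the order of replicates 1, 2 and 3. A positive log2 fold change means a higher level after WGP, and ± gives its SE. Adjusted p-values are those of edgeR's quasi-likelihood test (Benjamini-Hochberg, 12305 genes). The macrophage genes Adgre1 (385 to 494 CPM) and Cd68 (754 to 828 CPM) were abundant in each of the 6 libraries. Other macrophage genes differed between the groups. Of 20 interstitial macrophage markers 4 rose and 8 fell, where 15.2% and 15.7% of all tested genes did. Summed Y-linked transcripts were at 229, 207 and 223 CPM after WGP, against 114, 179.6 and 10.6 CPM after PBS. The labels give no sex, and the part of sex in the contrast between the groups was not tested. Each WGP library lay above each PBS library in this sum, and the PBS libraries differed among themselves in a way that the labels do not describe. Counts of called genes are therefore also given without PBS replicates 1 and 3, which were farther from the WGP libraries in this sum than PBS replicate 2, a choice made after the data were seen. Gene positions are on GRCm38.

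The promoters of several members are shown here because cell cycle genes are often described by 3 short elements, the CCAAT box, the element TTTGAA and the E2F-type element TTTCGCGC. The sequences are the 250 bases before the annotated RefSeq start (GRCm38.p6), 5′ to 3′ on the strand of the gene, and capitals mark an exact match to any of these elements on either strand. Mcm6 stands for the licensing genes (chr1:128359706-128359955, minus strand), Cdk1 for the mitotic kinase (chr10:69352913-69353162, minus strand), Mki67 for members that varied widely between WGP libraries (chr7:135716380-135716629, minus strand), and E2f2, at the upstream of its 2 annotated starts, for the member that rose most (chr4:136172024-136172273, plus strand).
Mcm6: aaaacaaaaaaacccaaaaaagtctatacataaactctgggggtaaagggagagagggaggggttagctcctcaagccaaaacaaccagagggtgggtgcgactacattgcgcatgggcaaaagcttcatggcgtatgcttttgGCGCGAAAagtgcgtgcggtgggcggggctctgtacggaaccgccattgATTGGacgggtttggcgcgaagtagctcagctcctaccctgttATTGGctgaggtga
Cdk1: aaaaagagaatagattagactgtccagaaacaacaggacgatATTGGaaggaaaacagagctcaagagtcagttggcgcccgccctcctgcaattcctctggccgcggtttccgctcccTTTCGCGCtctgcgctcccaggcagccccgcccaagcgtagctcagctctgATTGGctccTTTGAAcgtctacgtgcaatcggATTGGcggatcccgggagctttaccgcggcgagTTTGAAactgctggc
Mki67: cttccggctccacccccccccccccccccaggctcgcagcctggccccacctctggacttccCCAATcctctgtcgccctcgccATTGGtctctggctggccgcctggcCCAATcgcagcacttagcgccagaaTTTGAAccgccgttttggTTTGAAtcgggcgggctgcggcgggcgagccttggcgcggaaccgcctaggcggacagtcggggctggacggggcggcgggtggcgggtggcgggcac
E2f2: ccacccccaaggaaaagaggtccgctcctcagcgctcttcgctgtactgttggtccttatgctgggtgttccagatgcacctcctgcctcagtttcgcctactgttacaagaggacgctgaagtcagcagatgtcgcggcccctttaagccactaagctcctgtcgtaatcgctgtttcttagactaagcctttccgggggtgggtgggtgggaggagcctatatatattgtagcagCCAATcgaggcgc
A promoter entry was found for 36 of the 45 genes. In the windows from 250 bases before to 50 bases after a start, CCAAT was present for 26 of these 36 (72.2%) and for 41.1% of 27025 genes. TTTGAA was present for 13 (36.1%), against 20.2% of all genes, and TTTCGCGC for 5 (13.9%), against 0.374%. The 5 were Cdk1, Mcm5, Mcm6, Mcm7 and Uhrf1. TTTGAA was present in 2 of 3 mitotic cyclin and kinase genes with an entry, 4 of 6 mitotic kinase and checkpoint genes, 3 of 4 spindle and kinetochore genes, and both Top2a and Mki67. Outside mitosis it was found for Mcm2 and E2f2. These are matches of letters, not evidence of binding.

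After WGP, the fitted level was lower for most of the replication and mitosis genes. The 3 WGP libraries were close to each other for most G1 genes and far apart for most mitosis genes. Of the 45 genes 16 fell (35.6%), where 15.7% of all tested genes fell. A total of 2 rose (4.44%), where 15.2% of all tested genes rose, and 27 did not pass. In either direction 31.0% of all tested genes changed. The fitted change was below 0 for 40 of the 45, with a median log2 fold change of -0.89, against -0.02 for all tested genes. The WGP libraries lay wholly below the PBS libraries for 23 genes (51.1%, against 24.9% of tested genes) and wholly above for 2 (against 23.2%). By DESeq2 23 of the 45 fell and 2 rose (17.7% and 15.8% of all genes tested), and by limma-voom likewise 23 and 2 (16.6% and 15.5%). Beyond the genes called by edgeR, DESeq2 called Tyms, Ccna2, Ccnb2, Birc5, Bub1, Cdc20 and Cenpe, and limma-voom called Rrm2, Ccna2, Birc5, Bub1, Cenpe, Top2a and Mki67. With library sizes alone as the scaling, 2460 of all tested genes fell and 1236 rose, against 1935 and 1874 after TMM, and the median of all genes shifted to -0.12. All 45 passed the filter on low counts, 3 of them (Ccnb1, Ccne2 and Bub1) reaching the minimum in every PBS library but not in every WGP library.

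**Figure D1:**
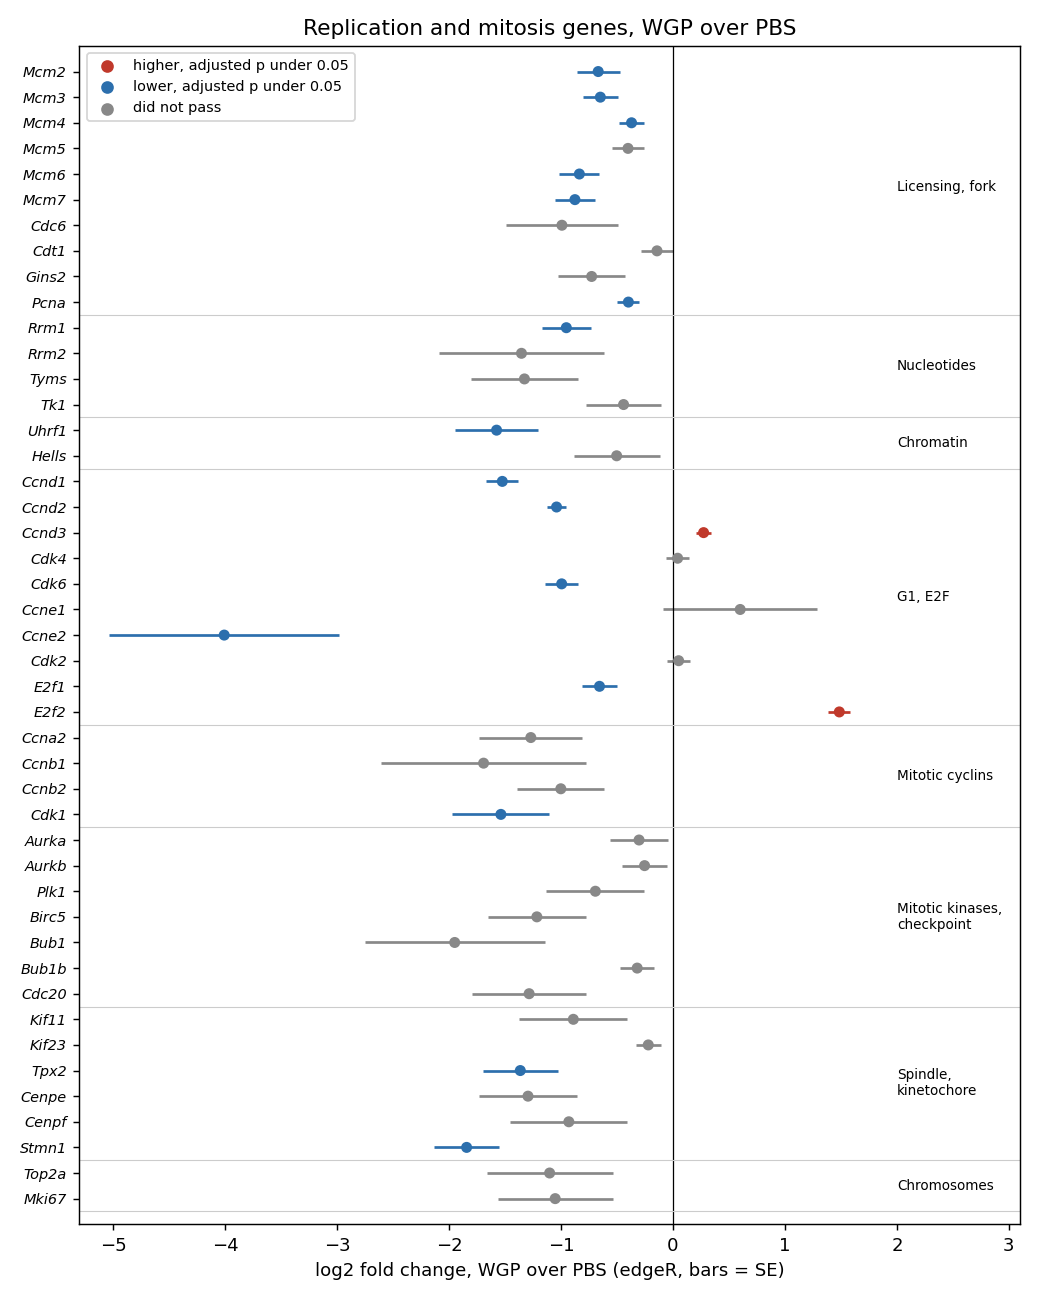
Log2 fold change of each of the 45 genes (WGP over PBS, x axis) with its SE, ordered by role from licensing at the top to chromosome structure at the bottom. Red points rose (2 genes), blue points fell (16 genes) and grey points did not pass the test (27 genes).

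These counts depended on single libraries. Without WGP replicate 2, 29 of the 45 fell, while 15.5% of all genes then tested fell, and 2 rose (13.9%). That library was the highest WGP library for 37 of the 45, so leaving it out lowers their WGP level by construction. The count of 29 is therefore a description only. Without PBS replicate 1, 10 fell and 1 rose (10.3% and 9.63% of genes tested), and without PBS replicates 1 and 3 together 3 fell (6.43% of genes tested), namely Ccnd1, Ccnd2 and Cdk6, and 1 rose, E2f2 (7.72% of genes tested). Leaving out any 1 library kept the calls of 9 genes, which were Mcm3, Mcm6, Mcm7, Pcna, Ccnd1, Ccnd2, Cdk6, Stmn1 and E2f2. The share of all tested genes that kept their call in every such fit was not counted. Whether these members were more or less stable than other genes is therefore not known.

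The G1 regulators changed in both directions. Of 10 genes, 5 fell, 2 rose and 3 did not pass. Ccnd1, the D cyclin induced by growth factors (ENSMUSG00000070348, chromosome 7, 144929931 to 144939925), stood at 23.7, 21.9 and 21.4 CPM in the WGP libraries, against 76.8, 51.1 and 64.8 CPM in the PBS libraries. Every WGP library lay below every PBS library (log2 fold change -1.52 ± 0.14, adjusted p = 5.95e-05). Ccnd2, a second D cyclin (ENSMUSG00000000184, chromosome 6, 127125162 to 127152193), stood at 51.2, 55.1 and 50.3 CPM in the WGP libraries, against 109, 115 and 98.4 CPM in the PBS libraries, again without overlap (log2 fold change -1.04 ± 0.086, adjusted p = 2.95e-05). Their partner kinase Cdk6 was at 40.4, 35.2 and 35.8 CPM in the WGP libraries, against 80.4, 85.1 and 56.4 CPM in the PBS libraries (log2 fold change -0.99 ± 0.15, adjusted p = 0.000984). The other D cyclin kinase, Cdk4, had 47.3, 49.6 and 49.1 CPM in the WGP libraries, against 45.2, 43.5 and 53.2 CPM in the PBS libraries. The groups overlapped, and Cdk4 did not pass (log2 fold change 0.042 ± 0.10, adjusted p = 0.789).

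Ccnd3, the D cyclin that prevails in many blood cells (ENSMUSG00000034165, chromosome 17, 47505051 to 47599691), moved the other way, with 315, 338 and 332 CPM in the WGP libraries, against 259.6, 272 and 283 CPM in the PBS libraries (log2 fold change 0.27 ± 0.068, adjusted p = 0.0114). Leaving out PBS replicate 1 ended the call (adjusted p = 0.0614), and it was lost without PBS replicates 1 and 3 (0.0974) and with library sizes alone as the scaling (0.0665). Per kilobase of exon, Ccnd3 was the most abundant D cyclin in each library. It made up 77.4, 78.6 and 79.3% of the summed D cyclin level per kilobase in the WGP libraries, against 51.5, 57.3 and 57.2% in the PBS libraries. The sum itself was 46.4, 48.99 and 47.7 CPM per kilobase after WGP, against 57.4, 53.999 and 56.5 after PBS. The WGP libraries had a lower sum and a higher Ccnd3 share, without overlap in either. Both values rest on merged exon lengths, which for Ccnd3 came to 8775 bases. A shorter length would give Ccnd3 more weight, so the direction of the sum depends on the length used. Other lengths were not tried.

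E2f2, an E2F family activator (ENSMUSG00000018983, chromosome 4, 136172394 to 136196057), was the member with the highest rise. It stood at 164, 156 and 171 CPM in the WGP libraries, against 55.5, 52.3 and 67.5 CPM in the PBS libraries. The lowest WGP library was above the highest PBS library, and the call held in each alternative run (log2 fold change 1.49 ± 0.10, adjusted p = 1.08e-05). E2f1, the best known activator E2F, had 16.7, 19.96 and 15.2 CPM in the WGP libraries, against 30.4, 28.7 and 22.5 CPM in the PBS libraries (log2 fold change -0.66 ± 0.16, adjusted p = 0.00969), a call that did not hold without PBS replicate 1 (adjusted p = 0.0537) or without PBS replicates 1 and 3 (0.0532). E2f2 made up 86.4, 83.5 and 87.9% of the level per kilobase of this pair after WGP, against 54.1, 54.1 and 65.9% after PBS.

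**Figure D2:**
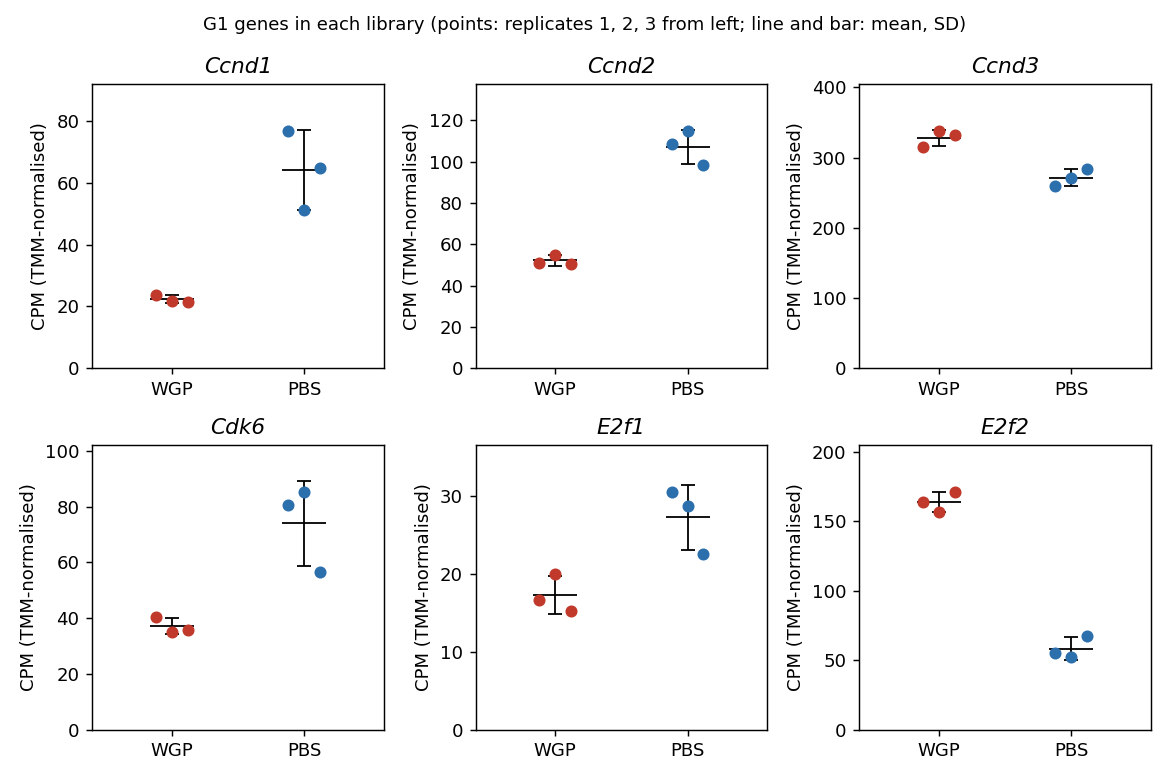
TMM-normalised level (CPM, y axis from 0) of 6 G1 genes in the 3 WGP libraries (red, left) and the 3 PBS libraries (blue, right), with mean and SD. Ccnd1, Ccnd2, Cdk6 and E2f1 were lower and Ccnd3 and E2f2 higher in WGP libraries, with no overlap between the groups in any panel. Only genes that passed the test are drawn. Of the 10 genes of this role the groups overlapped for 3 (Cdk4, Cdk2 and Ccne1), which are not drawn.

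Cyclin E, which with CDK2 starts S phase, was scarce. Ccne2 had 1, 4 and 0 counts in the WGP libraries, against 57, 16 and 22 counts in the PBS libraries, and it fell (adjusted p = 0.0131). Each WGP library was below and each PBS library above the count minimum of the filter (0.516 CPM), so Ccne2 was tested through its PBS level alone, and with a filter of 1 CPM in 3 libraries it was not tested. It is counted among the 16 genes that fell, and did not pass without PBS replicate 1 (0.105). Ccne1 had 0.842, 4.12 and 1.59 CPM in the WGP libraries, against 1.41, 0.571 and 2.33 CPM in the PBS libraries and did not pass (log2 fold change 0.60 ± 0.69, adjusted p = 0.546). Its level was above every PBS library in WGP replicate 2 alone, and its fold change turned to -0.24 ± 0.75 without that library. Its kinase Cdk2 had 34.3, 35.7 and 30.8 CPM in the WGP libraries, against 31.7, 33.4 and 32.2 CPM in the PBS libraries, with overlap, and did not pass (log2 fold change 0.051 ± 0.10, adjusted p = 0.749).

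Of the 10 licensing and fork genes 6 fell by modest amounts (60.0%, against 15.7% of all tested genes). The other 4 did not pass, and log2 fold changes of the 10 ran from -0.99 to -0.14. The MCM proteins form the ring-shaped helicase that opens DNA at origins, and 5 of its 6 subunit genes fell. Mcm7 had 13.02, 20.8 and 15.3 CPM in the WGP libraries, against 33.04, 25.3 and 31.7 CPM in the PBS libraries (log2 fold change -0.88 ± 0.18, adjusted p = 0.00461). Mcm6 was at 18.5, 26.3 and 17.9 CPM in the WGP libraries, against 44.8, 31.8 and 35.4 CPM in the PBS libraries (log2 fold change -0.84 ± 0.18, adjusted p = 0.00604). In both, WGP replicate 2 was the highest WGP library and still lay below every PBS library. Mcm3 had 24.02, 32.001 and 23.2 CPM in the WGP libraries, against 44.4, 34.3 and 45.5 CPM in the PBS libraries (log2 fold change -0.65 ± 0.15, adjusted p = 0.00960).

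Mcm2 had 10.8, 18.9 and 13.1 CPM in the WGP libraries, against 23.5, 21.8 and 22.6 CPM in the PBS libraries (log2 fold change -0.67 ± 0.19, adjusted p = 0.0226). The call of Mcm2 was lost without WGP replicate 1, WGP replicate 3, PBS replicate 1 or PBS replicate 3 (adjusted p = 0.0627, 0.0880, 0.0810 and 0.0512). Mcm4 had 33.3, 32.9 and 28.6 CPM in the WGP libraries, against 40.3, 37.7 and 44.5 CPM in the PBS libraries (log2 fold change -0.37 ± 0.11, adjusted p = 0.0259), and its call was lost without WGP replicate 3 (0.101), PBS replicate 1 (0.0749) or PBS replicate 3 (0.0967). Mcm5, the sixth subunit, had 23.01, 25.2 and 21.998 CPM in the WGP libraries, against 35.7, 24.9 and 32.1 CPM in the PBS libraries. Its groups overlapped by the lowest PBS library, and it did not pass (log2 fold change -0.40 ± 0.14, adjusted p = 0.0578). It passed without PBS replicate 2 (0.0149) and with upper quartile scaling (0.0397).

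Pcna, the sliding clamp of the DNA polymerases and the most abundant of these 10 genes per kilobase, had 59.2, 73.4 and 71.5 CPM in the WGP libraries, against 84.9, 88.03 and 96.03 CPM in the PBS libraries. The difference was small but without overlap (log2 fold change -0.40 ± 0.10, adjusted p = 0.0108). Cdt1 and Cdc6 load the helicase. Cdt1 had 20.8, 20.5 and 17.8 CPM in the WGP libraries, against 25.02, 21.5 and 18.7 CPM in the PBS libraries and did not pass (log2 fold change -0.14 ± 0.15, adjusted p = 0.494). Cdc6 ran from 1.31 to 2.59 CPM after WGP and from 1.56 to 4.86 CPM after PBS (log2 fold change -0.99 ± 0.50, adjusted p = 0.159), and passed without PBS replicate 2 (0.0487). Gins2, a subunit of the GINS part of the helicase, ran from 2.43 to 3.87 CPM after WGP and from 4.91 to 5.80 CPM after PBS (log2 fold change -0.73 ± 0.30, adjusted p = 0.0911).

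Among the 4 genes of nucleotide supply 1 fell (25.0%, against 15.7% of all tested genes), too few for a statement about the role. Rrm1, the large subunit of ribonucleotide reductase, had 12.3, 22.1 and 14.99 CPM in the WGP libraries, against 34.5, 25.4 and 35.7 CPM in the PBS libraries (log2 fold change -0.95 ± 0.22, adjusted p = 0.0109), and its call was lost without WGP replicate 3 (0.0529). The small subunit Rrm2, made in S phase, had 0.842, 8.34 and 5.80 CPM in the WGP libraries, against 15.7, 9.29 and 13.4 CPM in the PBS libraries. WGP replicate 2 held 9.91 times the level of WGP replicate 1, and Rrm2 did not pass (log2 fold change -1.35 ± 0.74, adjusted p = 0.232). It passed without WGP replicate 1 (0.0404). Thymidylate synthase, Tyms, had 2.02, 3.17 and 0.930 CPM in the WGP libraries, against 7.43, 4.78 and 3.18 CPM in the PBS libraries (log2 fold change -1.33 ± 0.48, adjusted p = 0.0586), and passed without WGP replicate 2 (0.0258) or PBS replicate 3 (0.0436). Thymidine kinase, Tk1, had 4.15, 6.18 and 3.61 CPM in the WGP libraries, against 7.72, 3.84 and 7.37 CPM in the PBS libraries (log2 fold change -0.44 ± 0.34, adjusted p = 0.354).

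Uhrf1, which guides maintenance methylation of new DNA, had 3.31, 7.18 and 3.72 CPM in the WGP libraries, against 19.5, 8.98 and 13.9 CPM in the PBS libraries. It fell without overlap (log2 fold change -1.57 ± 0.37, adjusted p = 0.0121), and the call was lost without WGP replicate 3 (0.0575). The chromatin remodeller Hells had 2.25, 4.75 and 3.23 CPM in the WGP libraries, against 6.85, 3.43 and 4.23 CPM in the PBS libraries and did not pass (log2 fold change -0.50 ± 0.38, adjusted p = 0.354).

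In mitosis genes the WGP libraries parted from each other. Of the 4 mitotic cyclin and kinase genes 1 fell (25.0%, against 15.7% of all tested genes), too few for a statement about the role. It was Cdk1, which had 0.954, 3.38 and 3.56 CPM in the WGP libraries, against 9.62, 6.64 and 6.70 CPM in the PBS libraries (log2 fold change -1.54 ± 0.43, adjusted p = 0.0219). That call was not kept without PBS replicate 1 (0.0933). Ccna2, the cyclin of S and G2, had 2.36, 7.71 and 3.17 CPM in the WGP libraries, against 14.3, 7.16 and 10.5 CPM in the PBS libraries. WGP replicate 2 lay above the lowest PBS library, and Ccna2 did not pass (log2 fold change -1.27 ± 0.46, adjusted p = 0.0712) but did without that library (0.00301). Ccnb2, a B-type cyclin, had 4.71, 7.08 and 2.30 CPM in the WGP libraries, against 9.91, 6.49 and 11.8 CPM in the PBS libraries (log2 fold change -1.001 ± 0.39, adjusted p = 0.0793, and 0.0211 without WGP replicate 2). Ccnb1, the main B-type cyclin, had 0, 28 and 11 counts in the WGP libraries, against 47, 32 and 60 counts in the PBS libraries, and it did not pass (log2 fold change -1.69 ± 0.91, adjusted p = 0.192).

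Mki67, which encodes the proliferation marker Ki-67 (ENSMUSG00000031004, chromosome 7, 135689784 to 135716361), had 30.9, 79.8 and 28.4 CPM in the WGP libraries, against 114, 69.1 and 105 CPM in the PBS libraries. WGP replicates 1 and 3 were below every PBS library, whereas WGP replicate 2 was above the lowest PBS library. With all libraries Mki67 did not pass (log2 fold change -1.05 ± 0.51, adjusted p = 0.204), and without WGP replicate 2 it did (-1.70 ± 0.23, adjusted p = 0.00330). Top2a, the topoisomerase that untangles sister chromatids, followed with 9.43, 33.95 and 16.1 CPM in the WGP libraries, against 57.3, 28.4 and 42.1 CPM in the PBS libraries (log2 fold change -1.10 ± 0.56, adjusted p = 0.219). Without WGP replicate 2 its log2 fold change was -1.73 ± 0.40 (adjusted p = 0.0309).

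None of the 7 mitotic kinase and checkpoint genes passed edgeR's test with all libraries. At an unadjusted p under 0.05, 3 did (Birc5, Bub1 and Cdc20). The share of all tested genes at that unadjusted threshold was not counted, so these 3 are a description only. DESeq2 called 3 lower and limma-voom 2, where 17.7% and 16.6% of all tested genes fell. Without WGP replicate 2, 5 fell, where 15.5% of all genes then tested fell. That library was the highest WGP library for all 7, so leaving it out lowers their WGP level by construction. Bub1b, the checkpoint kinase-like protein and the most abundant of them per kilobase, had 18.7, 23.4 and 16.03 CPM in the WGP libraries, against 23.3, 24.9 and 24.4 CPM in the PBS libraries (log2 fold change -0.32 ± 0.15, adjusted p = 0.137; 0.0335 without WGP replicate 2). Bub1, its partner at the kinetochore, had 0.842, 2.69 and 0.109 CPM in the WGP libraries, against 5.30, 3.32 and 5.56 CPM in the PBS libraries. Within WGP it ranged from 2 counts in replicate 3 to 51 counts in replicate 2 (log2 fold change -1.95 ± 0.80, adjusted p = 0.104; 0.00708 without WGP replicate 2).

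Aurkb, the catalytic subunit of the chromosomal passenger complex, had 9.37, 10.8 and 7.99 CPM in the WGP libraries, against 9.91, 10.3 and 13.4 CPM in the PBS libraries (log2 fold change -0.25 ± 0.20, adjusted p = 0.371). Birc5, or survivin, a partner of Aurkb in that complex, had 1.74, 5.02 and 1.97 CPM in the WGP libraries, against 7.97, 4.41 and 7.94 CPM in the PBS libraries (log2 fold change -1.22 ± 0.44, adjusted p = 0.0577). The call of Birc5 appeared without WGP replicate 2 (0.00590) or PBS replicate 2 (0.0461). The spindle pole kinase Aurka had 4.04, 5.39 and 4.98 CPM in the WGP libraries, against 6.12, 5.19 and 6.46 CPM in the PBS libraries (log2 fold change -0.30 ± 0.26, adjusted p = 0.406). Neither Aurka nor Aurkb passed in any fit that left out 1 library.

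Plk1, a kinase active from entry into mitosis to cytokinesis, had 1.74, 5.81 and 2.90 CPM in the WGP libraries, against 7.48, 5.55 and 3.90 CPM in the PBS libraries (log2 fold change -0.69 ± 0.44, adjusted p = 0.263; 0.0414 without WGP replicate 2). Cdc20, which activates the ubiquitin ligase that ends metaphase, had 0.786, 3.80 and 2.79 CPM in the WGP libraries, against 7.63, 3.84 and 6.56 CPM in the PBS libraries (log2 fold change -1.28 ± 0.51, adjusted p = 0.0830; 0.0409 without WGP replicate 2). In each of these 7 genes WGP replicate 2 was the highest WGP library.

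Of the 6 spindle and kinetochore genes 2 fell (33.3%, against 15.7% of all tested genes), too few for a statement about the role. Stmn1, which encodes the microtubule-destabilising protein stathmin, had 2.41, 5.02 and 3.28 CPM in the WGP libraries, against 14.8, 10.02 and 13.7 CPM in the PBS libraries (log2 fold change -1.84 ± 0.29, adjusted p = 0.000947). Its highest WGP library was below 10.02 CPM, the lowest PBS library. Tpx2, a spindle assembly factor that activates Aurora A, had 3.09, 7.92 and 3.78 CPM in the WGP libraries, against 14.04, 10.5 and 13.5 CPM in the PBS libraries (log2 fold change -1.36 ± 0.33, adjusted p = 0.0120). Tpx2 did not pass without WGP replicate 3 (0.0562) or PBS replicate 1 (0.0514).

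Kif23, a kinesin of cytokinesis, had 39.1, 43.4 and 49.03 CPM in the WGP libraries, against 55.5, 52.1 and 45.6 CPM in the PBS libraries (log2 fold change -0.22 ± 0.11, adjusted p = 0.168). Kif11, the kinesin that separates spindle poles, had 2.53, 9.56 and 4.60 CPM in the WGP libraries, against 13.8, 6.85 and 10.4 CPM in the PBS libraries (log2 fold change -0.89 ± 0.48, adjusted p = 0.210; 0.0143 without WGP replicate 2). The kinetochore motor Cenpe had 2.58, 9.98 and 4.49 CPM in the WGP libraries, against 13.4, 15.6 and 13.02 CPM in the PBS libraries, without overlap (log2 fold change -1.29 ± 0.44, adjusted p = 0.0641), and passed without WGP replicate 1 (0.0454) or WGP replicate 2 (0.000864). Cenpf, another kinetochore protein, had 1.96, 8.77 and 3.94 CPM in the WGP libraries, against 11.8, 6.12 and 10.1 CPM in the PBS libraries (log2 fold change -0.93 ± 0.52, adjusted p = 0.226; 0.0126 without WGP replicate 2).

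**Figure D3:**
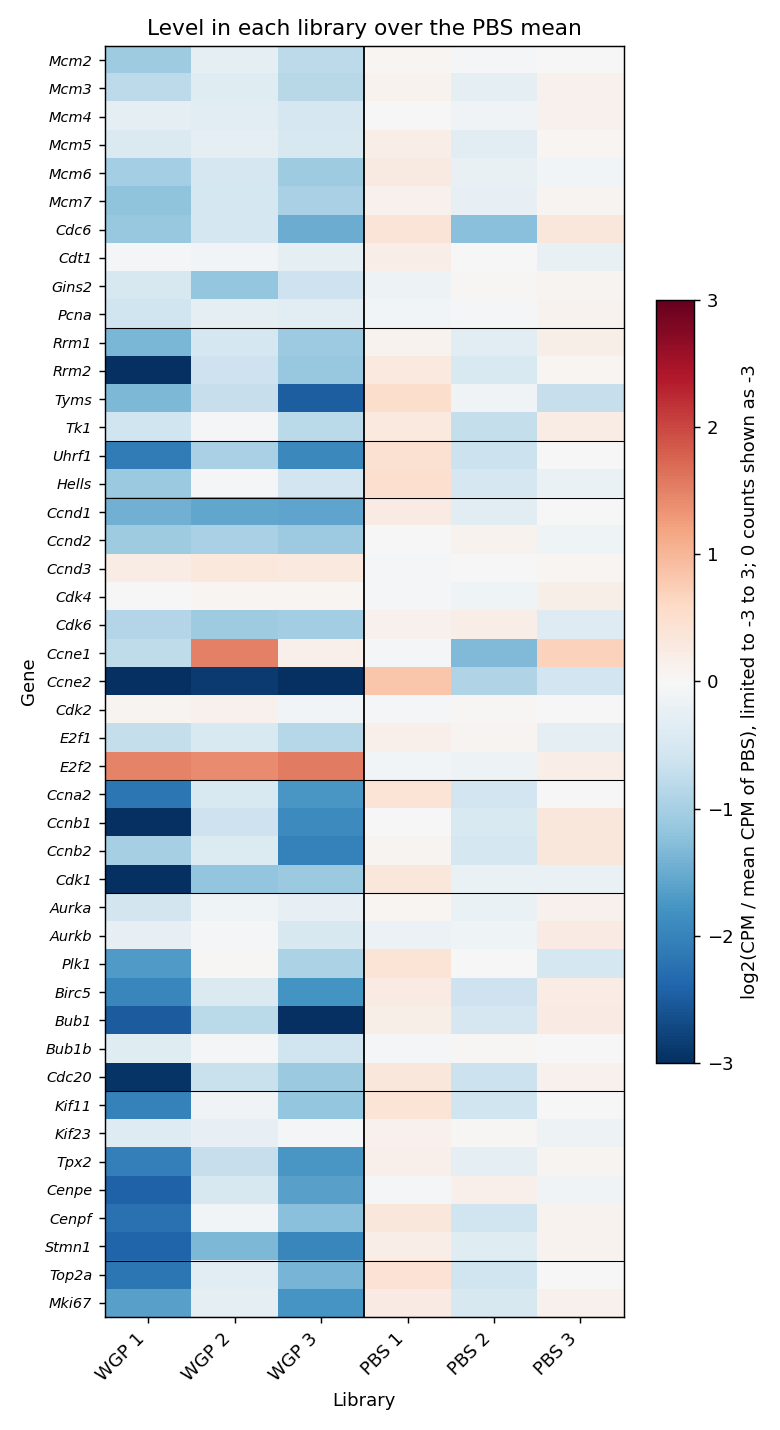
Level of each of the 45 genes in each library as the log2 ratio of its CPM to the mean CPM of the PBS libraries (colour, limited to -3 and 3, with 0 counts drawn as -3), with WGP libraries left of PBS libraries and black lines between roles. In most mitosis rows WGP replicates 1 and 3 are darker blue than WGP replicate 2, while E2f2 is red in the 3 WGP libraries.

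The spread between WGP libraries had the same direction in most of the 45 genes. WGP replicate 2 was the highest of the 3 WGP libraries for 37 (82.2%), against 34.5% of all tested genes. WGP replicate 1 was the lowest for 24 and replicate 3 for 18. Relative to the mean of the PBS libraries, the median level over the 45 genes was 0.464 in WGP replicate 1, 0.752 in replicate 2 and 0.479 in replicate 3, where the medians of all tested genes were 0.980, 0.983 and 0.982. The PBS libraries also differed, with PBS replicate 2 the lowest for 31 of the 45 (68.9%, against 34.7% of tested genes).

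The coefficient of variation (SD over mean of the 3 CPM values) had a median of 30.5% between WGP libraries and 19.5% between PBS libraries over the 45 genes. For all tested genes the medians were 11.9% and 11.01%. The 45 genes were also less abundant, with a median of 9.83 CPM against 23.6 CPM, and low counts vary more. Mki67, at a mean of 46.4 CPM after WGP, varied by 62.5% between WGP libraries, while Kif23, also a mitosis gene, varied by 11.4% at 43.8 CPM and the G1 gene Cdk6 by 7.68% at 37.1 CPM. Top2a, at 19.8 CPM, varied by 63.9%, and Bub1b, at 19.4 CPM, by 19.4%. These are single examples, and the part of abundance in the spread of the 45 genes was not tested.

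By role, the median coefficient of variation between WGP libraries was 6.57% for the G1 and E2F genes and 20.4% for licensing and fork genes. It was 60.3% for mitotic cyclins and kinase, 60.2% for mitotic kinases and checkpoint and 59.03% for spindle and kinetochore genes. Between PBS libraries these medians were 14.5%, 14.1%, 27.5%, 25.9% and 17.2%. The roles also differed in abundance, with a median of the mean level of 45.6 CPM for the G1 and E2F genes, 25.2 CPM for licensing and fork genes, and 6.10, 4.84 and 8.51 CPM for the mitosis roles in the same order. The difference in spread between roles, and the part of abundance in it, was not tested.

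WGP replicate 2 was the highest WGP library for most of these genes, so leaving it out lowers their WGP level by construction. The counts by role without it are therefore a description only, and no difference between roles was tested. Of all genes tested 15.5% fell without it, against 15.7% with all libraries. The number that fell went to 5 of 7 for mitotic kinases and checkpoint, against 0 with all libraries, and to 5 of 6 for spindle and kinetochore, against 2. It went to 3 of 4 for mitotic cyclins and kinase, against 1, to 2 of 4 for nucleotide supply, against 1, and to 2 of 2 for Top2a and Mki67, against 0. For the G1 genes, the licensing and fork genes and the chromatin genes the counts were 5, 6 and 1 with or without that library. Without WGP replicate 1, 0 mitotic kinase and checkpoint genes and 3 spindle and kinetochore genes fell (14.5% of all genes tested). Without WGP replicate 3 these counts were 0 and 1 (12.4% of all genes tested).

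**Figure D4:**
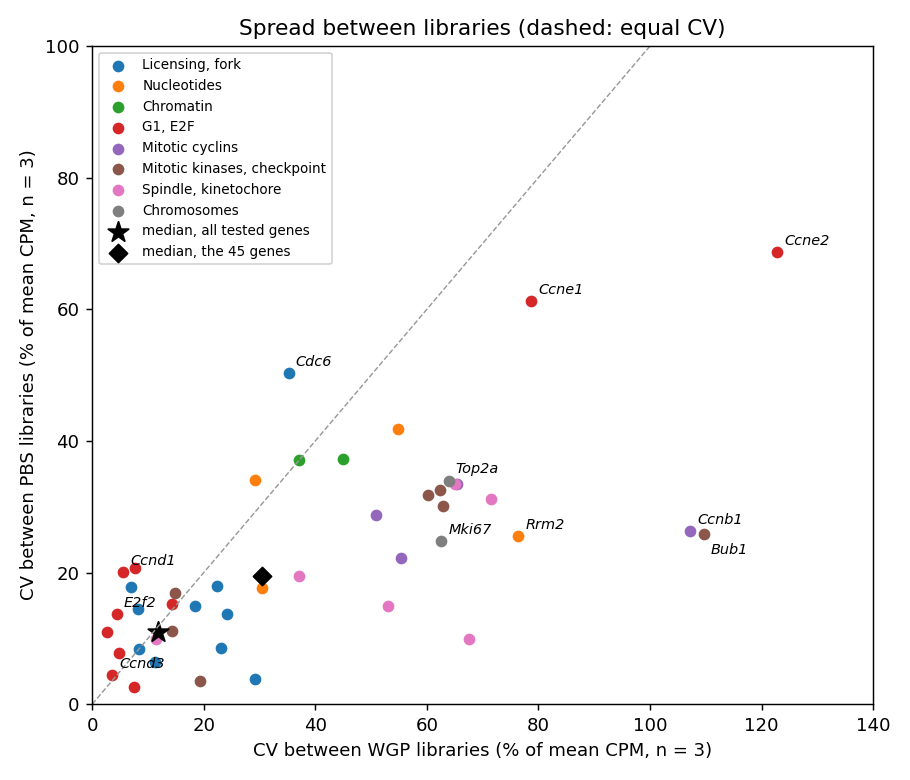
Coefficient of variation of CPM between the 3 WGP libraries (x axis, %) and between the 3 PBS libraries (y axis, %) for each of the 45 genes, coloured by role. Most mitosis genes lie right of the dashed line of equal spread, among them Mki67 at 62.5% after WGP, while Ccnd1 lies at 5.56%.

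Further genes of these pathways were listed by function, and each share called is set against that of all tested genes. Of 46 further replication genes 11 (23.9%, against 15.7%) fell and 3 (6.52%, against 15.2%) rose (median log2 fold changes -0.39 for these and -0.02 for all tested genes). Pold1, the catalytic subunit of DNA polymerase delta, had 15.6, 17.4 and 15.6 CPM after WGP, against 31.3, 30.3 and 26.6 CPM after PBS (log2 fold change -0.86 ± 0.13, adjusted p = 0.000650). Prim1 (the DNA primase subunit), Dbf4 (the activator of the CDC7 kinase) and Rpa1 (which coats single-stranded DNA) fell too, with log2 fold changes of -1.32 ± 0.35, -0.72 ± 0.16 and -0.35 ± 0.094 (adjusted p = 0.0159, 0.00714 and 0.0166). The call of Prim1 was lost without PBS replicate 1 (0.0537) or 3 (0.0575), and that of Rpa1 without WGP replicate 1 (0.0505), PBS replicate 1 (0.0766) or PBS replicate 3 (0.0509). The clamp loader genes Rfc2 (log2 fold change 0.51 ± 0.090, adjusted p = 0.00181) and Rfc1 (log2 fold change 0.41 ± 0.11, adjusted p = 0.0153) rose, as did the nucleoside kinase Dck (log2 fold change 0.55 ± 0.11, adjusted p = 0.00387). Rfc1 did not pass without PBS replicate 1 (0.0824) or 2 (0.0642), or with library sizes alone (0.0567). The number that fell, beside the share of all genes tested in the same fit, was 2 (4.35%, against 10.3%) without PBS replicate 1, 7 (15.2%, against 11.8%) without PBS replicate 2 and 3 (6.52%, against 13.4%) without PBS replicate 3. It was 6 (13.04%, against 14.5%) without WGP replicate 1, 12 (26.1%, against 15.5%) without WGP replicate 2, 6 (13.04%, against 12.4%) without WGP replicate 3 and 1 (2.17%, against 6.43%) without PBS replicates 1 and 3. In 4 of these 7 fits the share was below that of all genes.

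Of 72 further mitosis genes 25 (34.7%, against 15.7%) fell and 1 (1.39%, against 15.2%) rose, with a median log2 fold change of -1.11. Smc4, a condensin subunit, had 41.5, 50.1 and 55.2 CPM after WGP, against 79.8, 85.2 and 77.5 CPM after PBS (log2 fold change -0.72 ± 0.11, adjusted p = 0.000690). The tubulin gene Tubb5 had 284, 311 and 244 CPM after WGP, against 462, 394 and 417 CPM after PBS (log2 fold change -0.60 ± 0.10, adjusted p = 0.00119). Sgo2a, a protector of centromeric cohesion, had 0.730, 0.951 and 0.602 CPM after WGP, against 4.71, 4.10 and 4.04 CPM after PBS (log2 fold change -2.48 ± 0.42, adjusted p = 0.00136), and the spindle protein Tacc3 had 8.08, 8.29 and 8.59 CPM after WGP, against 22.2, 14.3 and 17.3 CPM after PBS (log2 fold change -1.11 ± 0.19, adjusted p = 0.00153). These 4 genes were picked for their small p, and in each the 3 WGP libraries lay below the PBS libraries. Of all 72 genes 41 had this order, where 24.9% of all tested genes did. The importin gene Kpna2 rose (log2 fold change 0.47 ± 0.13, adjusted p = 0.0217), and its call was lost without WGP replicate 3 (0.0965), PBS replicate 2 (0.0662) or PBS replicate 3 (0.0725), and with library sizes alone (0.0648).

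Foxm1, the transcription factor of many G2 and M genes, had 4.15, 10.2 and 6.68 CPM after WGP, against 16.03, 8.62 and 11.6 CPM after PBS and did not pass (log2 fold change -0.78 ± 0.34, adjusted p = 0.113; 0.0245 without WGP replicate 2). The checkpoint kinase Ttk, under 3 CPM in each library, did not pass either (log2 fold change -1.57 ± 0.87, adjusted p = 0.201). The number of these 72 genes that fell, beside the share of all genes tested, was 40 (55.6%, against 15.5%) without WGP replicate 2, 14 (19.4%, against 12.4%) without WGP replicate 3 and 12 (16.7%, against 10.3%) without PBS replicate 1. Without PBS replicates 1 and 3 it was 2 (2.78%, against 6.43%), below the share of all genes. WGP replicate 2 was the highest WGP library for 56 of the 72 (77.8%), so leaving it out lowers the WGP level of these 56 by construction. PBS replicate 2, the PBS library kept in that last fit, was the lowest PBS library for 40 (55.6%, against 34.7% of all tested genes).

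Of 34 inhibitors and repressors 5 (14.7%, against 15.2%) rose and 4 (11.8%, against 15.7%) fell, shares near or under those of all tested genes, with a median log2 fold change of -0.048. Cdkn2d, an inhibitor of CDK4 and CDK6, had 52.6, 56.1 and 58.6 CPM after WGP, against 29.3, 36.5 and 32.2 CPM after PBS (log2 fold change 0.77 ± 0.11, adjusted p = 0.000428). Rbl2, the pocket protein of resting cells, rose (log2 fold change 0.40 ± 0.087, adjusted p = 0.00556), and so did the repressor E2F gene E2f4 (log2 fold change 0.26 ± 0.073, adjusted p = 0.0209) and the antiproliferative gene Btg1 (log2 fold change 0.26 ± 0.083, adjusted p = 0.0334). The calls of E2f4 and Btg1 were lost with library sizes alone (0.129 and 0.119) and upper quartile scaling (0.0618 and 0.0696), where 2 of the 34 rose and 8 or 7 fell (11.9% and 17.9% of all genes with upper quartile scaling). For E2f4 the call was also lost without WGP replicate 3 (0.0666), PBS replicate 1 (0.0767) or PBS replicate 3 (0.0503), and for Btg1 without WGP replicate 3 (0.132), PBS replicate 1 (0.127) or PBS replicate 3 (0.0699).

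Gadd45g, a stress-induced growth inhibitor, fell, with 19.2, 22.2 and 19.6 CPM after WGP, against 57.7, 60.2 and 52.8 CPM after PBS (log2 fold change -1.48 ± 0.11, adjusted p = 1.41e-05). The CDK1 inhibitory kinases Wee1 (log2 fold change -1.23 ± 0.28, adjusted p = 0.00764) and Pkmyt1 (log2 fold change -1.68 ± 0.41, adjusted p = 0.0123) fell as well, Pkmyt1 not without WGP replicate 3 (0.0559) or PBS replicate 1 (0.0555). Cdkn1a, the p53-induced CDK inhibitor, had 321, 296 and 303 CPM after WGP, against 331, 395 and 356 CPM after PBS, a small decrease (log2 fold change -0.23 ± 0.079, adjusted p = 0.0451). That call was lost whenever a library other than PBS replicate 1 was left out (adjusted p from 0.0536 to 0.148). Cdkn1b had 204, 200.3 and 214 CPM after WGP, against 189.6, 224 and 191 CPM after PBS (log2 fold change 0.035 ± 0.081, adjusted p = 0.778).

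Of 9 tested cell cycle activators outside the 45 genes, 1 rose and 1 fell, shares under those of all tested genes (15.2% and 15.7%). Myc, a driver of growth and division, had 10.7, 24.4 and 15.3 CPM after WGP, against 59.8, 64.6 and 55.7 CPM after PBS. The highest WGP library lay below the lowest PBS library (log2 fold change -1.83 ± 0.29, adjusted p = 0.00433). Csf1r, which encodes the receptor of the growth factor CSF1, rose (log2 fold change 0.33 ± 0.075, adjusted p = 0.00713). In Myc, too, WGP replicate 2 was the highest of the WGP libraries.

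Levels of markers of other cells are given beside these genes. The summed level of 20 T and NK cell markers was 41.9, 162 and 116 CPM after WGP, against 312, 204 and 262 CPM after PBS, and 2 of the 20 fell while none rose (15.7% and 15.2% of all tested genes). Top2a and Mki67 together summed to 40.3, 114 and 44.5 CPM after WGP, against 171, 97.5 and 148 CPM after PBS. The libraries of each group stood in the same order in both sums, with WGP replicate 2 the highest of the WGP libraries and PBS replicate 2 the lowest of the PBS libraries. Markers of this list differed in their order, and a link between the 2 sums was not tested. The 2 that fell were Il7r and Klrd1. Il7r, a cytokine receptor gene, had 4.38, 5.54 and 7.88 CPM after WGP, against 23.6, 14.3 and 16.4 CPM after PBS (log2 fold change -1.61 ± 0.26, adjusted p = 0.00123), and the NK receptor gene Klrd1 had 1.46, 1.21 and 2.57 CPM after WGP, against 3.79, 4.62 and 5.04 CPM after PBS (log2 fold change -1.36 ± 0.40, adjusted p = 0.0241), a call lost whenever a library other than WGP replicate 3 was left out. Neither was highest in WGP replicate 2, whereas Cd3d, Cd8a and Cd4 were, and these were also lowest in PBS replicate 2. Cd3d had 0, 4.17 and 0.876 CPM after WGP, against 4.57, 2.13 and 3.71 CPM after PBS. Cd8a had 0.842, 8.08 and 2.13 CPM after WGP, against 11.8, 2.44 and 10.98 CPM after PBS. Cd4 had 7.58, 16.1 and 5.20 CPM after WGP, against 82.6, 21.1 and 64.5 CPM after PBS. None of them passed (adjusted p = 0.553, 0.427 and 0.0644). The T cell receptor complex gene Cd3e had 0.168, 8.29 and 3.89 CPM after WGP, against 11.7, 5.87 and 8.51 CPM after PBS and did not pass (log2 fold change -1.07 ± 1.05, adjusted p = 0.499). Cd3g, of the same complex, had 0, 8.45 and 1.20 CPM after WGP, against 6.85, 4.52 and 6.41 CPM after PBS, with 0 counts in WGP replicate 1, and did not pass either (log2 fold change -0.87 ± 1.36, adjusted p = 0.679). The NK gene Ncr1 had 1.85, 2.38 and 3.06 CPM after WGP, against 1.36, 2.13 and 2.19 CPM after PBS (log2 fold change 0.36 ± 0.44, adjusted p = 0.575). The sum of 11 B cell markers was 78.4, 142 and 105 CPM after WGP, against 149, 147 and 175 CPM after PBS. Of the 11, 1 fell, where 15.7% of all tested genes fell, and it was Cd22 (log2 fold change -1.15 ± 0.085, adjusted p = 1.76e-05).

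The alveolar macrophage sum (20 genes) was 2629.8, 3185 and 3008 CPM after WGP, against 10135, 11887 and 7845 CPM after PBS. In this list 19 genes fell, where 15.7% of all tested genes fell. Classical monocyte markers (13 genes) summed to 15181, 11798 and 13459 CPM after WGP, against 5229, 5322 and 6028 CPM after PBS, and 12 rose, where 15.2% of all tested genes rose. In the WGP group the alveolar sum was highest and the monocyte sum lowest in replicate 2. Endothelial markers (12 genes) summed to 105, 130.4 and 128 CPM after WGP, against 359.8, 382 and 362 CPM after PBS, and epithelial markers (14 genes) to 97.6, 151 and 158 CPM after WGP, against 577, 854 and 441 CPM after PBS.

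Of 20 interstitial macrophage markers 4 rose and 8 fell, where 15.2% and 15.7% of all tested genes did. Their sum was 14414, 15824 and 13582 CPM after WGP, against 21883, 20251 and 22559 CPM after PBS. Mertk (log2 fold change -3.01 ± 0.21, adjusted p = 0.000135) and Cd74 (-0.84 ± 0.12, adjusted p = 0.000650) were among those that fell. Fcgr1 (1.03 ± 0.11, adjusted p = 0.000122) and Itgam (0.66 ± 0.076, adjusted p = 0.000145) were among those that rose. For 10 fibroblast markers the sums were 14.7, 64.6 and 82.7 CPM after WGP, against 129, 171 and 169.6 CPM after PBS. For 17 markers of granulocyte and monocyte progenitors they were 114, 116 and 137 CPM after WGP, against 176, 192 and 119 CPM after PBS, with overlap. That list also holds the granule genes Ltf, Camp, Ngp and Lcn2, so its sum is not one of progenitors alone. Of the 14 tested 1 rose and 2 fell, shares under those of all tested genes (15.2% and 15.7%). The protease gene Prtn3 rose, with 9.60, 6.13 and 11.98 CPM after WGP, against 1.70, 1.82 and 0.950 CPM after PBS (log2 fold change 2.63 ± 0.36, adjusted p = 0.000442). Kit, a growth factor receptor gene, fell, with 2.08, 8.61 and 3.78 CPM after WGP, against 17.4, 15.9 and 12.3 CPM after PBS (log2 fold change -1.65 ± 0.48, adjusted p = 0.0390), a call that left-out libraries ended in 4 of 6 fits. Cd34 fell too, with 2.64, 5.28 and 4.98 CPM after WGP, against 7.14, 8.04 and 11.7 CPM after PBS (log2 fold change -1.06 ± 0.31, adjusted p = 0.0259), a call ended in 3 of 6 fits. Mpo and Elane, defining genes of such progenitors, were under 4 CPM in each library, and Mpo did not pass (log2 fold change -2.001 ± 1.01, adjusted p = 0.163) while Elane was below the filter. Erythroid, neutrophil and dendritic cell sums also overlapped between the groups. Erythroid markers summed to 144, 309 and 403 CPM after WGP, against 205, 284 and 308 CPM after PBS. Neutrophil markers summed to 1860.4, 2669.8 and 3493 CPM after WGP, against 2254, 3094 and 1429 CPM after PBS, and dendritic cell markers to 481, 658 and 598 CPM after WGP, against 644, 524 and 654 CPM after PBS. The part of any of these cells in the levels of the 45 genes was not tested.

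**Figure D5:**
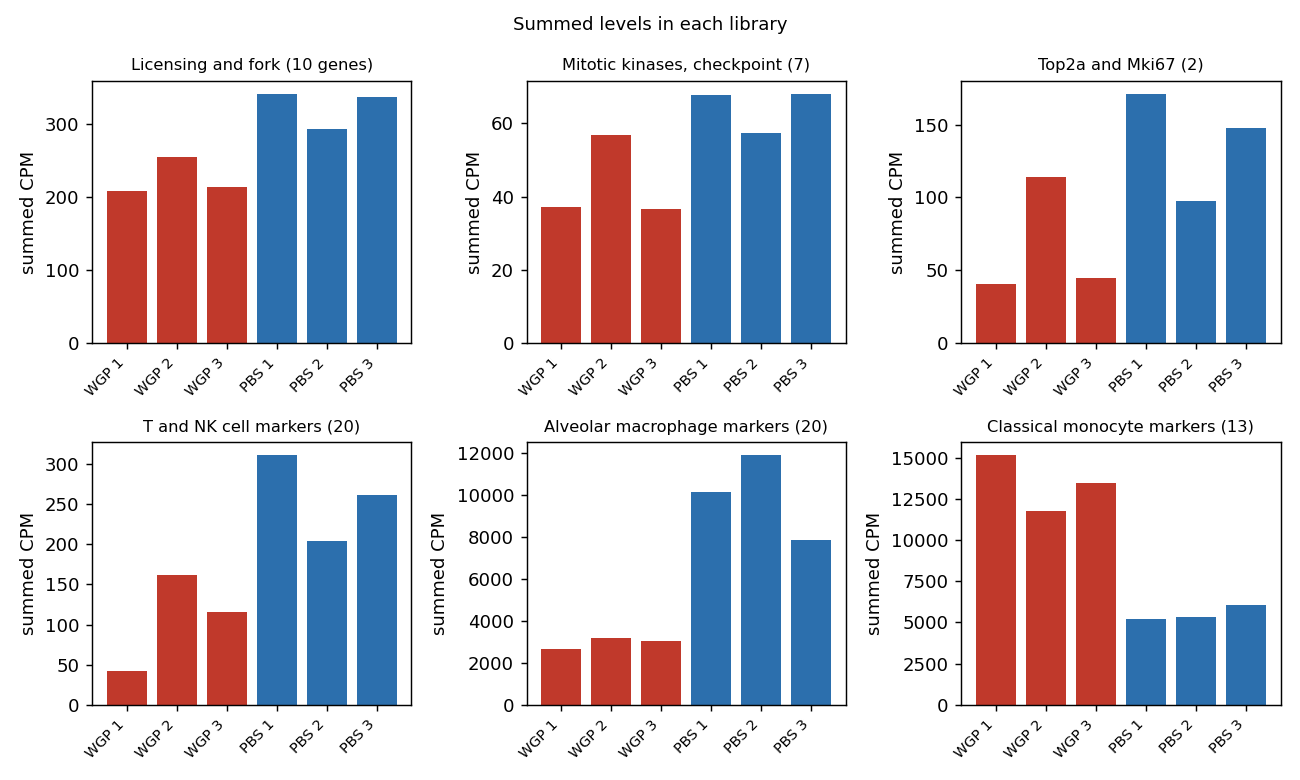
Summed CPM (y axis from 0) in each library for 3 roles among the 45 genes (upper row) and for 3 lists of cell type markers (lower row), with WGP libraries in red on the left and PBS libraries in blue. WGP replicate 2 is the highest WGP library in the upper panels and for T and NK cell markers, and the lowest for classical monocyte markers.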

How the data were processed

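The files held deposited counts, whole reads per gene as the authors counted them. The tools that the submitters' processing notes list are HTSeq 0.10.0 and FastQC 0.10.1, with GRCm38 and mm10 as builds. For aligner, annotation and strand setting, the sources used here name none. Groups and replicate numbers came from the titles. Same-numbered WGP and PBS libraries did not deviate together (correlations -0.0811 to -0.0458), so they were not treated as pairs. Libraries of a group differed by more than sampling noise (chi-square 13.5 to 24.8 per degree of freedom). GENCODE M21 matched 21939 of 21965 identifiers (99.9%) and gave symbols, coordinates and merged exon lengths. The exons of 15 of the 45 genes overlap another gene, among them those of Mcm7, Ccnd1, Ccnd2, Ccnd3, Cdk6, Ccne2 and Stmn1, which changed, so their reads are less certain.

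The test was edgeR 4.0.16 under R 4.3.3 (filterByExpr, TMM, estimateDisp and glmQLFit with robust = TRUE, two-sided, threshold 0.05), tested on simulated data. The SE is the log2 fold change divided by the square root of F. Alternatives were other scalings, filters, DESeq2 1.42.0, limma 3.58.1 with voom, each library left out, and a replicate block. A library with no count allows up to 3 counts, for counting error. The 45 genes and all lists were chosen with earlier results of these data known. Members with calls, or among the 4 most abundant of a role, were to be given by library, and of the other lists up to 4 called genes in each direction with the smallest p, with Cdkn1a, Cdkn1b, Myc, Foxm1 and Ttk by name. Cd3d, Cd3e, Cd3g, Cd4, Cd8a, Ncr1, Elane, Mpo, Adgre1 and Cd68 were named after their values were seen. Some listed marker genes were not analysed here.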

Additional observations from a re-analysis of the deposited data

How the results depend on the processing

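Over all genes, the numbers called were 1874 higher and 1935 lower. Leaving out 1 library gave 1202 to 1753 higher and 1289 to 1964 lower, and without PBS replicates 1 and 3, where the lone PBS library was assumed to vary like the others, they were 993 and 827. Of the 45 genes 2 were higher and 16 lower, against 1 to 2 higher and 10 to 29 lower with 1 library left out, and 1 and 3 without PBS replicates 1 and 3. With library sizes alone 1236 genes were higher and 2460 lower, and of the 45 genes 1 and 20. A block for the replicate number gave 2 higher and 14 lower of the 45, and no library correlated best with its own number. DESeq2 and limma-voom each called 23 lower.

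Among genes near 0, the log2 fold change of Cdk4 turned to -0.0195 with upper quartile scaling, to -0.0605 with library sizes alone and to -0.0211 without PBS replicate 2 (-0.0211 to 0.132 over left-out libraries). Cdk2 turned to -0.00836 and -0.0497 under these scalings. Cdkn1b turned to -0.0246 and -0.0661 under them, ranged over left-out libraries from -0.0113 to 0.111, and was -0.115 without PBS replicates 1 and 3. Over left-out libraries Ccne1 ranged from -0.241 to 1.13. Without PBS replicates 1 and 3, Cdc6 turned to 0.260 and Tk1 to 0.278. The cause was not tested. Low counts limit the precision of scarce genes such as Ccne2 and Bub1.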
